A study of Mus musculus with 16 samples.

Results

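The endothelial marker genes PECAM1, CDH5, ICAM2, TEK, TIE1, KDR, FLT1, FLT4, ENG and VWF were followed in mouse ES cells differentiated on stroma. They are 10 of the 30854 target names in the array table, and every probe carrying one of these names was taken, which gave 16 probes. The cultures were tau-EGFP knock-in ES cells (the green reporter under the tau promoter) grown on PA6, a stromal line of mouse bone marrow, and PA6 cells grown alone, all in serum-free medium and harvested at day 7. All 6 groups shared this medium and time. Each kind of culture was kept without added growth factor (-GFs), with FGF2 at 20 ng/ml or with BMP4 at 10 ng/ml per the labels (the study's methods state a lower BMP4 dose), the factor being present for 3 days. The co-cultures comprised 2 arrays for -GFs, 3 for FGF2 and 2 for BMP4, and PA6 comprised 3 arrays per condition, 16 in all. One ES line and one stromal line were used, and RNA came from the whole well, so a co-culture array mixes ES-derived and PA6 transcripts.

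Endothelial cells line vessels and are recognised by a set of surface and secreted proteins. PECAM1, CDH5 (VE-cadherin) and ICAM2 hold neighbouring cells together or serve leukocyte contact. TEK (TIE2) is the receptor of the angiopoietins and TIE1 its related partner, while KDR, FLT1 and FLT4 are the VEGF receptors. ENG is a co-receptor for TGF-beta family ligands, and VWF is a clotting glycoprotein that endothelial cells store. Several of these genes are not private to endothelium: PECAM1 is also borne by undifferentiated mouse ES cells, and ENG by mesenchymal stromal cells.

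A probe was taken as detected when its detection p-value, the share of negative control beads at least as bright, was under 0.05, a limit that 5% of negative beads pass on an array. Levels are normalized intensities on the log2 scale. By group the signal was uneven. ENG and 1 of 2 FLT1 probes were detected on all 16 arrays. Both PECAM1 probes were detected on the 7 co-culture arrays and on none of the 9 PA6 arrays, and the TEK probe was detected on 9 arrays. The other 11 probes were dim. Among these the better KDR probe was detected on 6 arrays, and 1 probe each of FLT4 and CDH5 and the VWF probe on 3 each. TIE1, ICAM2, the second FLT1 probe, the second CDH5 probe and 1 further FLT4 probe were detected on 1 array each. The second KDR probe and the third FLT4 probe were detected on 0 arrays. In all, 5 probes of 4 genes (PECAM1, TEK, FLT1 and ENG) were detected on every array of at least 1 group and were tested among 14829 genes, while 6 genes were not. A gene that passed only through the group where it was bright was likely to differ between groups, so counts over these 4 describe them alone.

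**Figure D1:**
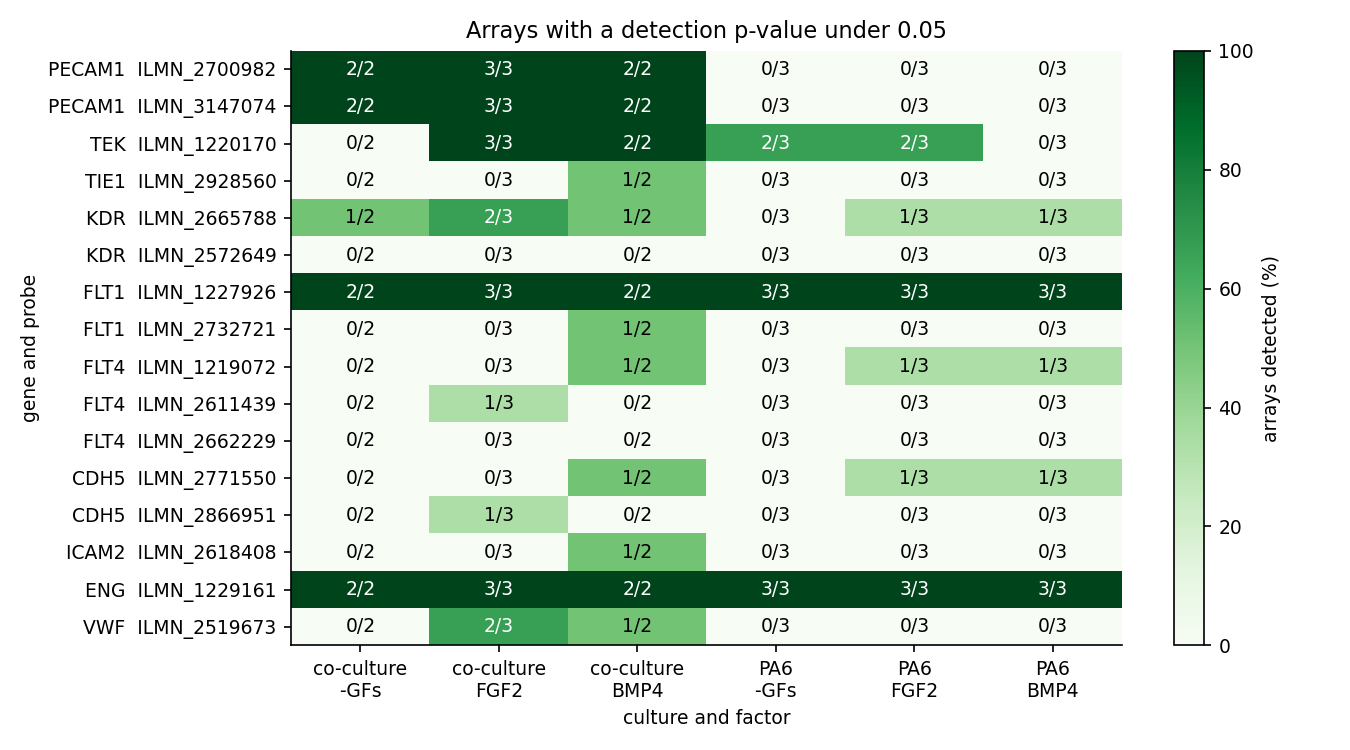
Arrays of each culture and factor (columns) on which each probe of the 10 genes (rows) had a detection p-value under 0.05, as detected over total, with shade giving the percentage. PECAM1 was detected in co-cultures alone, FLT1 (1 probe) and ENG in every group, and TEK in 4 of 6 groups.

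The share of all probes detected on an array was 37.3 to 47.0%, and the median raw intensity was 177.9 to 232.2. Precision is limited by how few arrays each group has. Marker genes of ES cells and stroma followed the labels. The summed normalized level of 12 pluripotency genes was 43800 to 169000 in the co-cultures against 1560 to 4220 in PA6, and that of 9 stromal genes was 51800 to 66800 against 116000 to 173000.

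PECAM1 was the clearest of the adhesion molecules. Its brighter probe (ILMN_2700982) read 6.96 and 7.81 (log2 level) in the -GFs co-cultures. With FGF2 it read 10.49, 11.11 and 10.29, and with BMP4 it read 9.90 and 8.83. The 3 co-culture groups did not overlap, in the order FGF2, BMP4, -GFs. In PA6 the levels lay between 5.62 and 6.06 on all 9 arrays, undetected, with overlapping groups.

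PECAM1 rose in co-cultures by a log2 fold change of 3.24 ± 0.42 (SE) with FGF2 (limma, adjusted p = 0.0098) and by 1.98 ± 0.46 with BMP4 (adjusted p = 0.088). A call required an adjusted p below 0.1 together with a log2 fold change beyond 1 in either direction. Of the 4 genes tested here, PECAM1 and TEK were called higher under each factor. Of all genes tested, 7.42% were called for FGF2 (5.07% higher) and 3.75% for BMP4 (2.28% higher). The difference of BMP4 from FGF2, -1.26 ± 0.42, was not called (adjusted p = 0.243, 95% interval -2.24 to -0.28), and 1.44% of genes were called in that comparison. It was called with the variance estimated over all 16 arrays (adjusted p = 0.0454), and when the column run, a stretch of neighbouring table columns holding each group at most once, was a block (-1.48, adjusted p = 0.0956). The FGF2 and BMP4 comparisons share the same 2 -GFs arrays. The BMP4 call was lost when any 1 of 5 co-culture arrays was left out, namely either -GFs array, FGF2 replicate 1 or 3, or BMP4 replicate 1, with a largest adjusted p of 0.361. It remained without FGF2 replicate 2 or BMP4 replicate 2. It was also lost with the replicate number as a block (adjusted p = 0.185), with the column run as a block (1.45, adjusted p = 0.144), with detection asked on 1 array (0.139) and with no filter on dim probes (0.18). In these bulk samples fewer cells of a type and less RNA per cell cannot be told apart, nor can PECAM1 of ES cells and of endothelium.

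The second PECAM1 probe (ILMN_3147074) gave the same order of groups. It read 6.78 and 7.09 with -GFs, 9.30, 9.78 and 9.29 with FGF2, and 9.09 and 7.68 with BMP4. Tested as a probe of its own, it rose by 2.52 ± 0.40 with FGF2 (limma, adjusted p = 0.0188), and its BMP4 difference was 1.45 ± 0.44 (adjusted p = 0.189). Over the 16 arrays the levels of both probes correlated at r = 0.986, as a description of one gene read by different probes on the same arrays.

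Pluripotency markers moved beside PECAM1, and their part in its change was not tested. Of the 12 pluripotency genes tested, 10 were called higher with FGF2 (median log2 fold change 2.73, against -0.06 over all genes), among them POU5F1 at 2.70 ± 0.43 and NANOG at 2.15 ± 0.23. With BMP4, 5 were called higher (median 1.33, against -0.0015 over all genes). Their summed level was 43800 to 50800 with -GFs, 142000 to 169000 with FGF2 and 84900 to 113000 with BMP4. SOX2 and DPPA3 were called under neither factor. The 5 neural genes tested were all lower with each factor, but with FGF2 DCX, STMN2 and NCAM1 changed little (-0.19, -0.03 and -0.12). The part of the neural genes was not tested. Of 5 tested of 8 on the array, HES5 and ELAVL3 were called lower with FGF2 (median over the 5 of -0.19), and HES5, ELAVL3 and DCX with BMP4 (median -1.38). Their summed level was 17600 to 29300 with -GFs, 14500 to 16900 with FGF2 and 9330 to 9580 with BMP4. Some blood cells bear PECAM1 too, and blood cell genes were mostly dim, with 5 of 17 tested. Of these LAPTM5, a lysosomal protein of leukocytes, was called higher with FGF2 (4.11 ± 0.59, adjusted p = 0.012). The defining leukocyte gene PTPRC was detected on 1 of 16 arrays by its best probe. The summed level of the 5 was 1510 to 2350 with -GFs, 4020 to 7280 with FGF2 and 1800 to 2870 with BMP4. With FGF2, however, 3 of the 5 were lower and 2 higher (median log2 fold change -0.24, against -0.06 over all genes). With BMP4, 1 was lower and 4 were higher (median 0.54). The part of the blood cell genes was not tested either.

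TEK, the angiopoietin receptor, followed PECAM1 in the co-cultures and differed from it in the stroma. Its level was 6.35 and 5.94 with -GFs, where it was not well above background. It was 8.82, 9.59 and 8.85 with FGF2, and 8.28 and 8.22 with BMP4. The 3 groups did not overlap, again in the order FGF2, BMP4, -GFs.

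The measured log2 difference from -GFs was 2.94 ± 0.28 for FGF2 (limma, adjusted p = 0.00451) and 2.11 ± 0.30 for BMP4 (adjusted p = 0.026). Against the dimmest detected signal of the -GFs arrays, TEK was at least 5.86-fold higher with FGF2 and at least 3.28-fold higher with BMP4. Such a bound sets the group mean against the lowest level that counted as detected on each array where the gene was undetected, or the probe's own level if higher. BMP4 stood 0.84 ± 0.28 lower than FGF2 without a call (adjusted p = 0.245, 95% interval of the difference -1.49 to -0.18). The BMP4 call was lost without -GFs replicate 2 (adjusted p = 0.109) or BMP4 replicate 1 (0.141), and with all 16 arrays in one model (0.1005). The FGF2 calls of PECAM1 and TEK held with each of the 7 co-culture arrays left out.

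In PA6 alone the TEK level was scattered within groups. It read 8.97, 7.48 and 6.44 with -GFs, 8.48, 6.40 and 7.27 with FGF2, and 6.12, 6.26 and 6.60 with BMP4. It was detected on 2 of 3 arrays of the first pair of groups and on 0 of 3 with BMP4. Replicate 1 was the highest in -GFs and in FGF2, and the lowest in BMP4. The factor differences, -0.25 ± 0.66 for FGF2 and -1.30 ± 0.66 for BMP4, were not called (limma, adjusted p = 0.919 and 0.586, intervals -1.73 to 1.24 and -2.79 to 0.18). None of the 4 genes tested was called in PA6, where FGF2 called 0.027% of genes and BMP4 0% (limma). At an unadjusted p under 0.05 these comparisons also held none of the 4.

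TIE1, the relative of TEK, gave little signal. Its single probe passed the detection limit on 1 array, BMP4 replicate 1 of the co-cultures, at 6.69, and the other 15 arrays lay between 5.49 and 6.31. Its groups overlapped in every factor comparison.

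**Figure D2:**
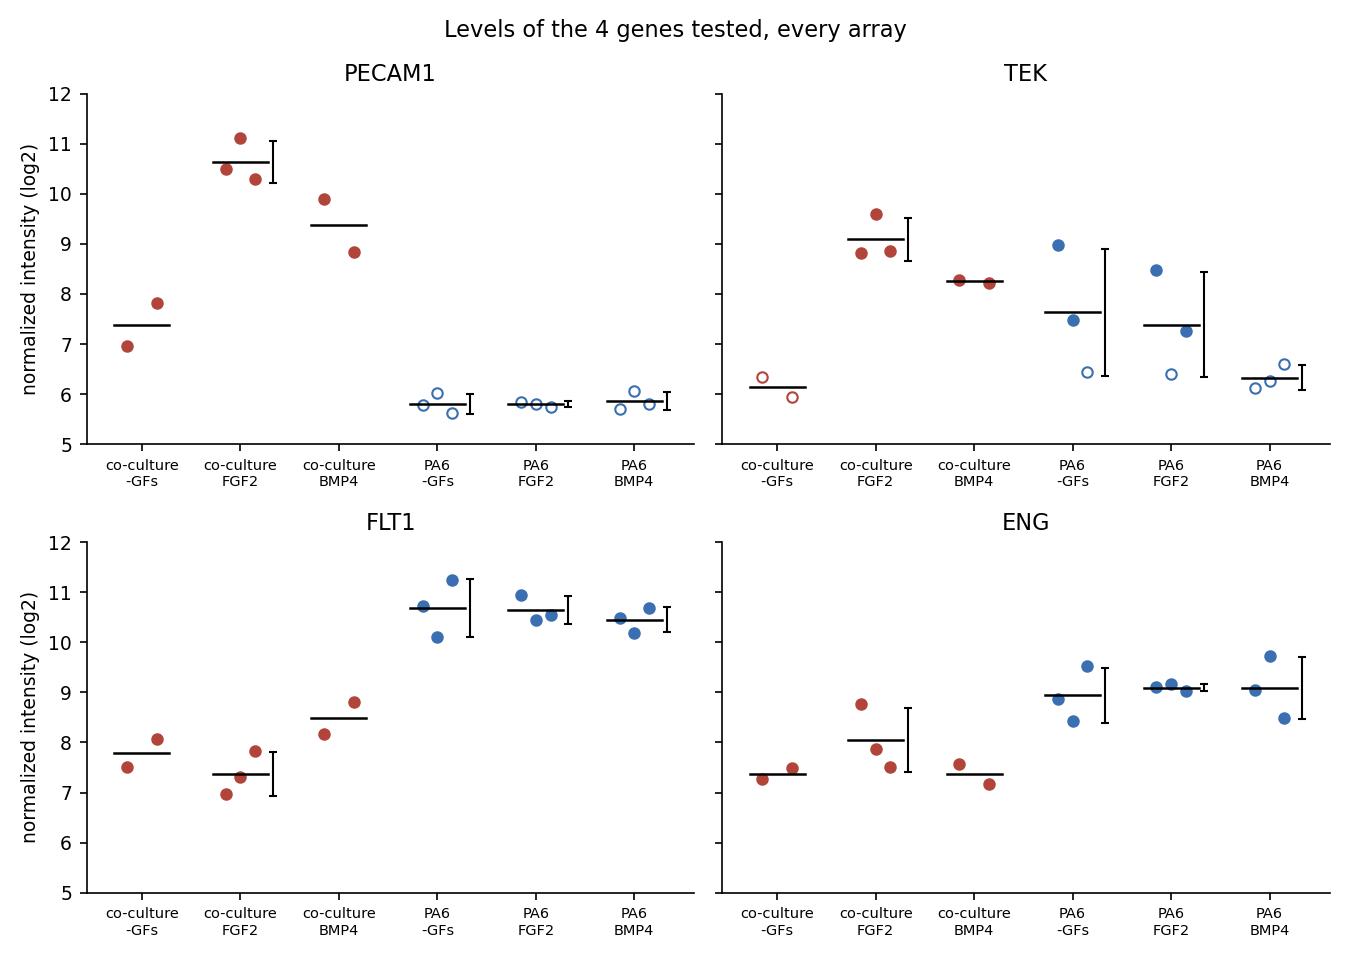
Normalized intensity (log2) of PECAM1, TEK, FLT1 and ENG on every array, by culture and factor, with a line at the group mean and a bar of 1 SD for groups of 3. Filled points were detected and open points were not: PECAM1 and TEK stand at 8.22 or above in the FGF2 and BMP4 co-cultures, and FLT1 stands above 10 in PA6 alone.

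FLT1, a VEGF receptor that binds VEGFA with high affinity, was mainly a stromal signal. Its level in PA6 was 10.72, 10.10 and 11.25 with -GFs, 10.95, 10.44 and 10.53 with FGF2, and 10.48, 10.19 and 10.69 with BMP4. In the co-cultures it was 7.51 and 8.07 with -GFs, 6.96, 7.31 and 7.84 with FGF2, and 8.18 and 8.81 with BMP4. Every PA6 array was higher than every co-culture array. Within co-cultures the BMP4 arrays lay above all others, and the -GFs and FGF2 arrays overlapped.

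FLT1 was called under neither factor. The log2 difference was -0.42 ± 0.33 for FGF2 (95% interval -1.20 to 0.36, limma adjusted p = 0.509) and 0.70 ± 0.36 for BMP4 (-0.15 to 1.55, adjusted p = 0.443). BMP4 exceeded FGF2 by 1.12 ± 0.33 without a call (0.34 to 1.90, adjusted p = 0.203), the opposite sign from PECAM1 and TEK in that comparison. The call of this difference was gained with median scaling in place of quantile normalization (1.24, adjusted p = 0.097) and when the variance was estimated over all 16 arrays (adjusted p = 0.093). The second FLT1 probe was detected on 1 array, BMP4 replicate 1 of the co-cultures, at 7.16, and did not show the high PA6 level (5.53 to 6.81 on the 9 PA6 arrays). The 2 probes correlated at 0.309 over 16 arrays, so the pattern of FLT1 rests on 1 probe.

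KDR (FLK1), the main signalling receptor of VEGFA and an early mark of vascular precursors, stayed near the detection limit. The better probe was detected on -GFs replicate 2, FGF2 replicates 1 and 3 and BMP4 replicate 1 of the co-cultures, and on replicate 3 of FGF2 and of BMP4 in PA6. Its group means ran from 6.20 (PA6, -GFs) to 6.55 (co-culture, -GFs), and all groups overlapped. With no filter on dim probes the FGF2 difference in co-cultures was -0.09 ± 0.26 (log2, limma adjusted p = 0.938) and the BMP4 difference -0.23 ± 0.29 (adjusted p = 0.912). A change in KDR was not detectable at this signal.

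FLT4, the receptor of VEGFC, was likewise dim on its 3 probes. The best one was detected on BMP4 replicate 1 of the co-cultures (7.16) and on replicate 2 of FGF2 (7.35) and of BMP4 (7.64) in PA6. No FLT4 comparison was called with no filter, the difference for BMP4 in co-cultures being 0.89 ± 0.33 (limma adjusted p = 0.438). The ligand VEGFC was detected on all 7 co-culture arrays and on no PA6 array. VEGFC rose in co-cultures by 1.21 ± 0.16 with FGF2 (adjusted p = 0.0105) and by 1.50 ± 0.18 with BMP4 (adjusted p = 0.014).

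ENG was detected on all arrays and was higher in stroma. Its level in PA6 was 8.87, 8.42 and 9.53 with -GFs, 9.10, 9.16 and 9.02 with FGF2, and 9.05, 9.73 and 8.49 with BMP4. In the co-cultures it was 7.26 and 7.48 with -GFs, 8.76, 7.88 and 7.51 with FGF2, and 7.56 and 7.17 with BMP4. FGF2 replicate 1 of the co-cultures lay within the range of PA6, and the other 6 co-culture arrays lay below it.

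No factor called ENG. In co-cultures the log2 difference was 0.68 ± 0.36 for FGF2 (95% interval -0.17 to 1.52, limma adjusted p = 0.322) and -0.01 ± 0.40 for BMP4 (-0.94 to 0.92, adjusted p = 0.996). In PA6 it was 0.15 ± 0.34 for each factor (adjusted p = 0.9 and 0.927). The FGF2 arrays did not overlap the -GFs arrays, though the lowest FGF2 array (7.51) and the highest -GFs array (7.48) lay closer to each other than the arrays within either group.

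VWF was dim, with its signal confined to co-cultures that received a factor. Its level was 5.43 and 5.67 with -GFs, 6.50, 7.70 and 7.07 with FGF2, and 6.48 and 5.81 with BMP4. Of these, FGF2 replicates 2 and 3 and BMP4 replicate 1 were detected. The 9 PA6 arrays lay between 5.40 and 5.70, all undetected. The lowest FGF2 array (6.50, undetected) stood barely above the higher BMP4 array (6.48), and since BMP4 replicate 2 and both -GFs arrays were undetected, no order was read from their levels.

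VWF missed the filter on dim probes, and its FGF2 call turned on how that filter was set. With detection asked on at least 1 array, over 20719 genes, its measured log2 difference for FGF2 in co-cultures was 1.54 ± 0.37 and was called (limma, adjusted p = 0.088), as were 4.34% of genes. With no filter, over 30854 genes, the same difference was not called (adjusted p = 0.111), where 2.66% of genes were. Against the detection level of the -GFs arrays the FGF2 mean of VWF, which includes the undetected replicate 1, was at least 1.47-fold higher. FGF2 co-cultures exceeded PA6 with FGF2 by 1.51 ± 0.25 (adjusted p = 0.000213, at least 1.22-fold), a comparison in which 22.8% of genes were called. The FGF2 effect in co-cultures exceeded that in PA6 by 1.43 ± 0.37 (adjusted p = 0.0708, with 2.86% of genes called), though VWF was undetected on every PA6 array. The BMP4 difference in co-cultures was 0.60 ± 0.40 (adjusted p = 0.762). These last 3 values are with no filter.

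CDH5 and ICAM2 each showed 1 bright array. The CDH5 probe ILMN_2866951 read 8.37 on FGF2 replicate 1 of the co-cultures, and between 5.28 and 6.20 on the other 15 arrays. The second CDH5 probe did not show it: it read 6.45 there, undetected, and was detected instead on BMP4 replicate 2 of the co-cultures (6.91), FGF2 replicate 2 of PA6 (7.10) and BMP4 replicate 3 of PA6 (7.37). The 2 probes correlated at 0.0271 over the 16 arrays, and no array had both detected. With no filter CDH5 was represented by the second probe (ILMN_2771550), whose mean over all arrays is larger. It differed by -0.14 ± 0.26 for FGF2 (limma, adjusted p = 0.89) and by 0.29 ± 0.29 for BMP4 (adjusted p = 0.865) in co-cultures. Probe ILMN_2866951 was not tested. Its co-culture means were 6.68 with FGF2, raised by replicate 1, and 5.58 with -GFs.

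ICAM2 read 8.00 on BMP4 replicate 2 of the co-cultures, its only detection, and 6.35 on BMP4 replicate 1. The other 14 arrays lay between 5.51 and 6.31. With no filter its BMP4 difference in co-cultures was 1.50 ± 0.48 (log2, limma adjusted p = 0.357). The bound was at least 1.56-fold, and it rests on 1 array of 2. Against PA6 with BMP4 the difference was called (1.13 ± 0.38, adjusted p = 0.0397, at least 1.25-fold), where 20.5% of genes were, and it rests on the same array.

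**Figure D3:**
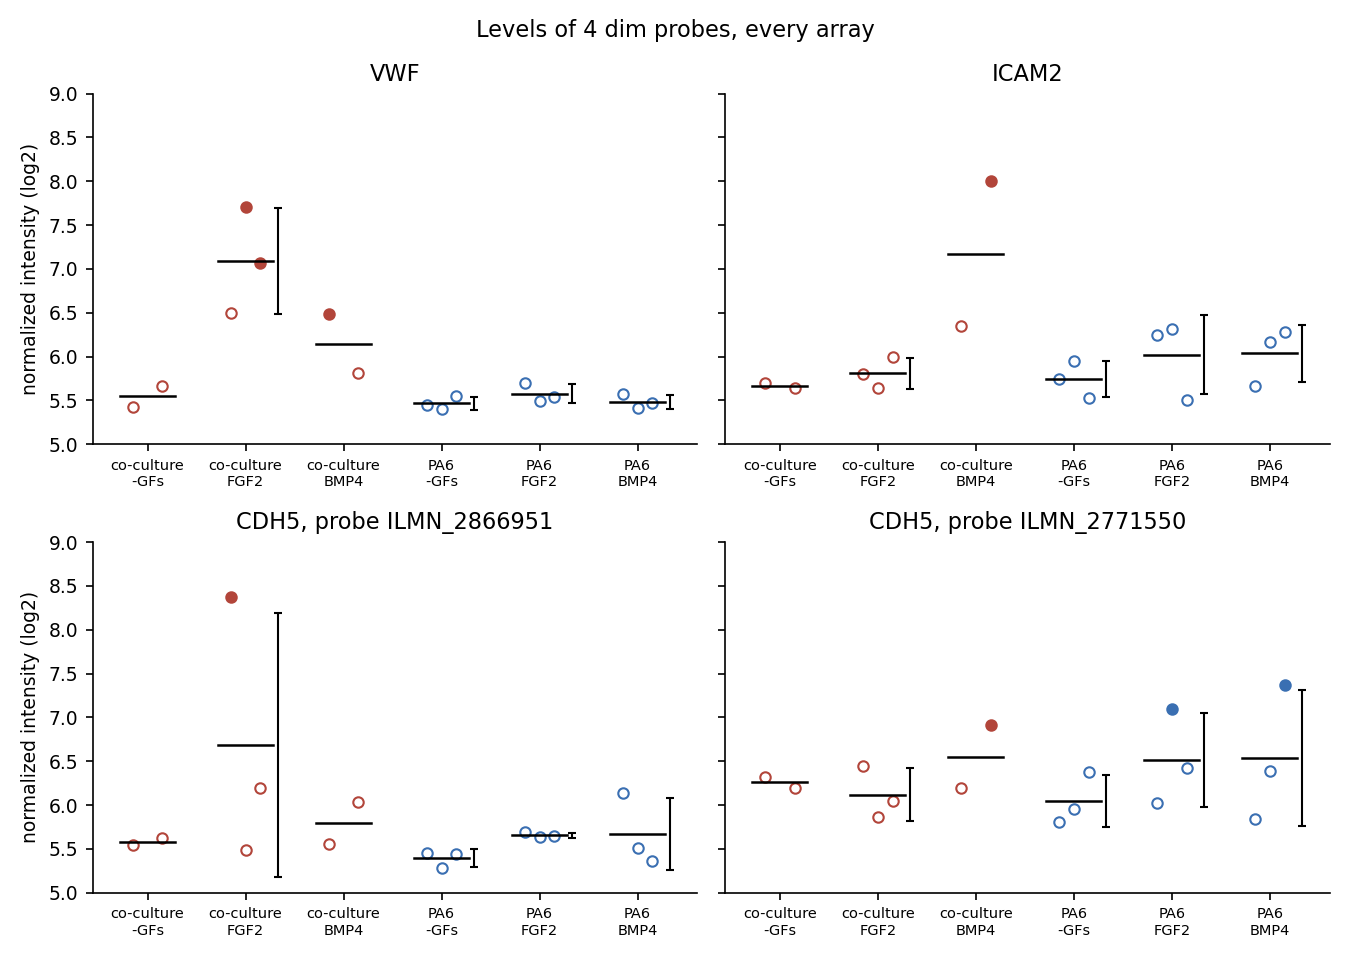
Normalized intensity (log2) of VWF, ICAM2 and both CDH5 probes on every array, by culture and factor, with a line at the group mean and a bar of 1 SD for groups of 3. Filled points were detected: VWF was detected on 3 co-culture arrays, ICAM2 on 1 at 8.00, and the CDH5 probes on different arrays.

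The comparison of co-cultures with PA6 asked which signals come with the ES-derived cells. PECAM1 was higher in co-cultures, at least 1.62-fold with -GFs, at least 14.2-fold with FGF2 and at least 5.73-fold with BMP4 (limma, adjusted p = 0.000708, 6.79e-09 and 7.04e-07). By its second probe the bounds were 1.19-fold, 6.29-fold and 2.90-fold, and the -GFs difference of 0.90 ± 0.36 was under the fold limit. The -GFs call of PECAM1 was lost with no background correction (0.93). FLT1 was lower, by a log2 difference of -2.89 ± 0.34 with -GFs, -3.27 ± 0.31 with FGF2 and -1.96 ± 0.34 with BMP4. ENG was lower as well, by -1.57 ± 0.40, -1.05 ± 0.35 and -1.72 ± 0.40. All 4 genes tested were called in each condition, where 44.1% (-GFs), 46.4% (FGF2) and 42.4% (BMP4) of genes were called. Stromal markers moved beside FLT1 and ENG: 7 of 9 were called lower with -GFs (median -2.48), 7 with FGF2 (median -1.97) and 6 with BMP4 (median -1.51). Their part in the lower FLT1 and ENG was not tested, and the share of PA6 RNA in a co-culture was not measured. The ENG call with FGF2 was lost without co-culture FGF2 replicate 2 (-0.96) or 3 (-0.78), and with no background correction (-0.73).

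TEK changed sides. Without factors it was at least 2.13-fold lower in co-cultures than in PA6 (measured difference -1.49 ± 0.63, limma adjusted p = 0.0525). With FGF2 it was higher by 1.71 ± 0.56 (adjusted p = 0.0151), and with BMP4 at least 2.64-fold higher (measured 1.92 ± 0.63, adjusted p = 0.0162). The first of these calls was lost without either -GFs co-culture array (-1.69 and -1.28) or without replicate 1 of the PA6 -GFs arrays, where the difference was -0.82 (limma adjusted p = 0.212). It was also lost with no filter on dim probes (adjusted p = 0.102), at an adjusted p under 0.05 and with no background correction (-0.87).

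Whether a factor acted unequally in the 2 kinds of culture was tested as a difference of effects over all 16 arrays. For FGF2 the effect in co-cultures exceeded that in PA6 by 3.25 ± 0.43 for PECAM1 and by 3.19 ± 0.84 for TEK (log2, limma adjusted p = 0.000773 and 0.0383), and 7.90% of genes were called. For BMP4 the excess was 1.93 ± 0.45 for PECAM1 and 3.41 ± 0.88 for TEK (adjusted p = 0.036 and 0.0565), with 4.23% of genes called. The second PECAM1 probe, tested as a probe of its own, gave 2.66 ± 0.48 for FGF2 (adjusted p = 0.00572). Its value for BMP4, 1.70 ± 0.51, was not called (adjusted p = 0.114). The corresponding values of FLT1 were -0.38 ± 0.46 and 0.93 ± 0.49, and those of ENG 0.52 ± 0.53 and -0.16 ± 0.56. No call was made for these (adjusted p = 0.386 or above). The size of the called differences is set in part by background. PECAM1 was undetected on all 9 PA6 arrays, so its PA6 term is a difference between background levels, a factor effect there below the detection limit could not have been seen, and its value restates the change in co-cultures. TEK was undetected on both -GFs co-culture arrays and on the 3 PA6 arrays with BMP4, so its values are measured differences and not exact folds. The TEK excess for FGF2 lost its call without -GFs replicate 2 of the co-cultures (adjusted p = 0.125). That for BMP4 lost it without any of 5 arrays, namely both -GFs and both BMP4 co-culture arrays and BMP4 replicate 1 of PA6. PECAM1 lost the BMP4 call without -GFs replicate 1 (1.51) or BMP4 replicate 1 (1.40) of the co-cultures.

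**Figure D4:**
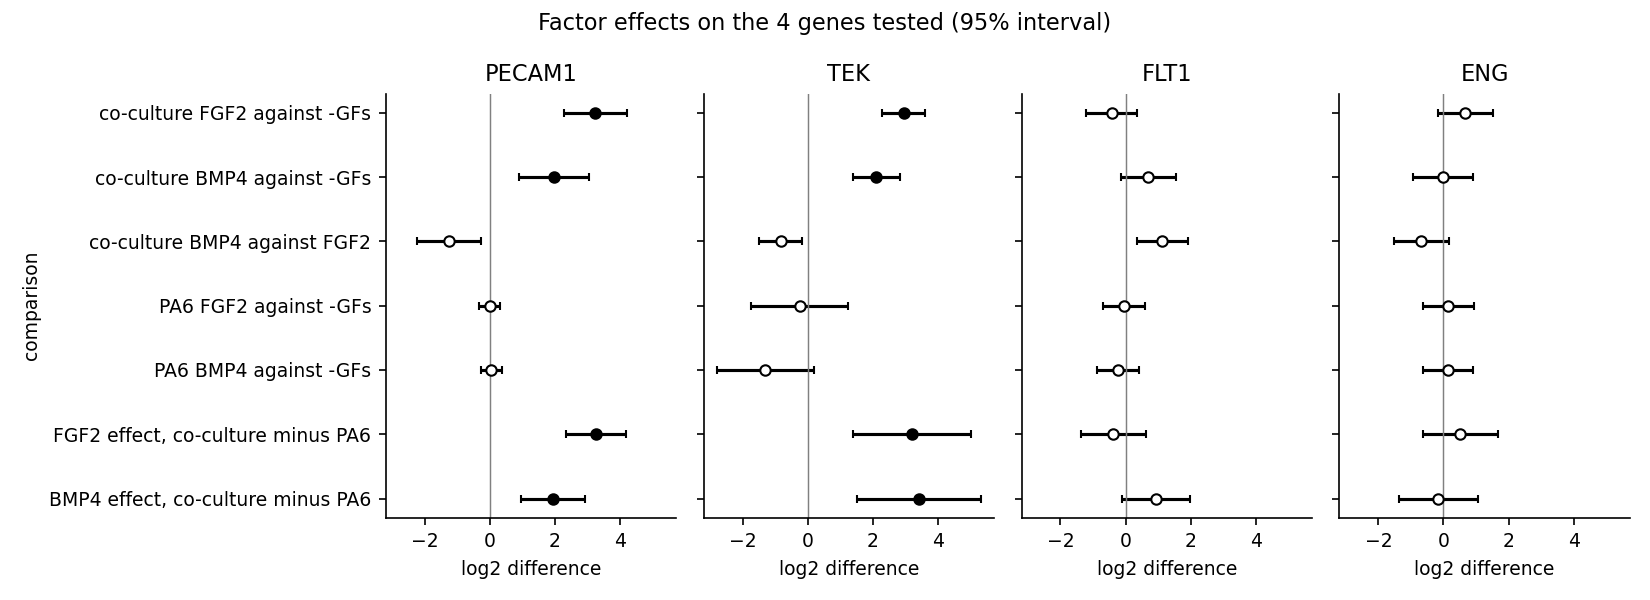
Measured log2 differences of PECAM1, TEK, FLT1 and ENG for each factor comparison, and for each factor effect in co-cultures minus that in PA6, with 95% intervals. Filled points were called and open points were not: PECAM1 and TEK are filled for both factors in co-cultures, and FLT1 and ENG are open throughout.

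Other endothelial genes were read from lists of transcription factors and of further marker genes. Of 6 endothelial transcription factors tested of 11 on the array, HHEX was called higher with FGF2 (1.83 ± 0.25, limma adjusted p = 0.0111). In that comparison 7.42% of all genes were called. SOX17, which specifies arterial endothelium and also endoderm, was called higher with BMP4 (at least 2.43-fold, measured 1.97 ± 0.21, adjusted p = 0.0109), where 3.75% of all genes were called. SOX17 was also called higher with BMP4 than with FGF2 (1.23 ± 0.19, adjusted p = 0.0633). However, SOX17 was undetected on every PA6 and -GFs co-culture array, and was not detected on every FGF2 co-culture array. Only the BMP4 co-cultures, where SOX17 was bright, brought it past the filter on dim probes. These SOX17 differences toward BMP4 were therefore favoured by the filter. The median over the 6 in co-cultures was 0.25 for FGF2 and 0.60 for BMP4, against -0.06 and -0.0015 over all genes. The blood and endothelial regulators TAL1 and FLI1 were detected on 0 arrays.

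Of 19 further endothelial genes tested of 29 on the array, MMRN2, an extracellular matrix protein of vessels, was called higher with FGF2 (3.02 ± 0.34, limma adjusted p = 0.00729) and with BMP4 (2.01 ± 0.38, adjusted p = 0.0509). RAMP2, a partner of the adrenomedullin receptor, was called lower with FGF2 (-1.56 ± 0.34, adjusted p = 0.0427). EMCN, a sialomucin of venous and capillary endothelium, showed a measured difference of 3.04 ± 0.73 with BMP4 that missed the limit (adjusted p = 0.101), and none of the other genes of this list was called for a factor within a culture. As a difference of effects between the cultures EMCN was called for BMP4 (2.71 ± 0.72, adjusted p = 0.0631), with 4.23% of all genes called. EMCN was undetected on every PA6 and -GFs co-culture array. It passed the filter only through the BMP4 co-cultures where it was bright, so a difference toward BMP4 was favoured by the filter. For FGF2 the calls by that test were MMRN2 (3.47) and CAV1, a protein of caveolae (1.17), higher, and RAMP2 (-1.96) and the thrombin receptor THBD (-1.74), lower. That test called 7.90% of all genes. Within co-cultures 1 of the 19 was called higher and 1 lower with FGF2, and 1 higher with BMP4. In these comparisons 7.42% (FGF2) and 3.75% (BMP4) of all genes were called. The median over the 19 within co-cultures was 0.35 for FGF2 and 0.68 for BMP4, against -0.06 and -0.0015 over all genes. Of 13 VEGF, angiopoietin and TGF-beta ligands and co-receptors tested of 16, VEGFC was the only one called for a factor in co-cultures. It was called higher under each, with the same shares of all genes called. As a difference of effects VEGFC was called for each factor too, but it was undetected on every PA6 array, so these values restate its change in co-cultures. By the same test ANGPT1, a ligand of TEK, was called lower for FGF2 (-1.57 ± 0.35, limma adjusted p = 0.0167). None of these lists had a gene called for a factor in PA6.

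The genes whose level ran most like each marker over the 7 co-culture arrays were named as a description, since the arrays fall into 3 groups. For PECAM1 these were ANGPTL4 (r = 0.999), MOV10 (0.997) and MMRN2 (0.997), with 3.41% of the other 14828 genes above 0.9. For TEK they were A630077B13RIK (0.994), RBM47 (0.993) and DAZL (0.993), with 2.96% above 0.9. PECAM1 and TEK themselves correlated at 0.944, and FLT1 correlated with them at -0.326 and -0.240. FLT1 was closest to LOC100048439 (0.987), 6330562C20RIK (0.985) and SCARF2 (0.985), and ENG to GPBP1 (0.996), LARP4 (0.985) and ARL6IP1 (0.984).

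RefSeq promoter sequence (build GRCm38.p6) was matched for 6 of the 10 genes, TEK, TIE1, KDR, FLT1, FLT4 and ENG. The 250 bases before the start were searched on both strands. The words searched were AGGAAG or its variant CGGAAG for the ETS factors, which bind many endothelial genes. For blood and vascular zinc finger factors the word was AGATAA instead. For a core promoter element it was TATAAA on either strand. Either ETS word was found in TIE1, FLT1 and ENG, 2 matches each, and in 39.2% of 32851 promoters. TEK, KDR and FLT4 held none of the 4 words in this window. Of the 250 bases, 203 for TEK and all 250 for KDR and FLT1 lie within the annotated gene, while those of FLT4 lie outside it. AGATAA was in none of the 6 (9.99% of all promoters), and TATAAA was in FLT1 alone (12.4%). The windows of TIE1 (chr4:118489850-118490099, minus strand) and ENG (chr2:32646345-32646594, plus strand) are printed because both carry 2 ETS words and lie wholly outside their genes, while ENG was detected on 16 arrays and TIE1 on 1. Capitals mark the ETS words on either strand.
TIE1: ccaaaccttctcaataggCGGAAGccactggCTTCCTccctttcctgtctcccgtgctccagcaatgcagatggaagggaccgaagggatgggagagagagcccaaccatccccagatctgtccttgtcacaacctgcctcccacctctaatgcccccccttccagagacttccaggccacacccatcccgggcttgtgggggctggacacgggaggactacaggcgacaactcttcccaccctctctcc
ENG: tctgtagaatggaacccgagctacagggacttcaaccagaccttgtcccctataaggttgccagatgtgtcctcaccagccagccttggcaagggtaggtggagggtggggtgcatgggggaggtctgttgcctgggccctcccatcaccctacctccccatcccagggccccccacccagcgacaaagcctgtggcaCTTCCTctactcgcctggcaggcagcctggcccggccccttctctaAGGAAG
In ENG the words begin 52 and 6 bases before the start, and in TIE1 232 and 219 bases before it. The match is a description of letters in this window.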

How the data were processed

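RNA of 16 cultures was read on Illumina BeadChips (MouseWG-6 v2.0), 1 array per culture. The deposited table holds, per probe and array, a bead intensity not normalized between arrays and a detection p-value, per the file headers. The authors processed scans with GenomeStudio 2011.01 (submitters' processing notes) and used spline-normalized values that were not used here. The table names no genome build. The labels describe biological replicates.

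Intensities were background corrected (normexp from detection p-values), quantile normalized and log2 transformed after an offset of 16 (neqc, limma 3.58.1, R 4.3.3). Of 45281 probes, 20880 had a detection p-value below 0.05 throughout some group. The probe with the largest mean represented each gene, leaving 14829 genes. Rows naming no probe (6) were dropped. Models used the 7 co-culture arrays, the 9 PA6 arrays, or all 16 between cultures. A call required an adjusted p (Benjamini-Hochberg over all genes) under 0.1 and a log2 fold change over 1, as in the study's methods. Fits were tested on simulated data. Alternatives covered background, scaling, filter, thresholds, variance model, blocks and left-out arrays.

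All 10 genes and their probes are named, with the called genes of each other list and the 3 genes most like each tested marker. The genes and lists were chosen with earlier results of these data known. No columns lacked a sample.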

Additional observations from a re-analysis of the deposited data

Results flagged for a closer look

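The measured difference of factor effects between co-cultures and PA6 was called for PECAM1 and TEK under each factor (limma). For FGF2 the log2 difference was 3.25 for PECAM1 and 3.19 for TEK, and for BMP4 it was 1.93 for PECAM1 and 3.41 for TEK. The second PECAM1 probe was not called for BMP4 (1.70, limma adjusted p = 0.114). PECAM1 was undetected on every PA6 array, so an effect of a factor there could not have been seen below the detection limit and the PECAM1 values restate the change in co-cultures. For TEK the -GFs co-cultures and the PA6 arrays with BMP4 were undetected, and the sizes depend on background. Groups of 2 or 3 arrays were too small to look for a single array apart from its group.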

How the results depend on the processing

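Across the co-culture FGF2 comparison the calls of PECAM1 and TEK held in all alternatives that tested them. Requiring detection on all 16 arrays left only FLT1 and ENG of these genes, so that 0 of them were called for FGF2 or BMP4 in co-cultures and for either difference of effects, and 2 in each comparison of the cultures. For BMP4 in co-cultures 1 gene in place of 2 was called with the filter at 1 array or none, at an adjusted p under 0.05, with either block, or with all 16 arrays in one model, and 0 to 2 with an array left out. For BMP4 against FGF2, 1 was called in place of 0 with median scaling or the column run block, and 2 with all 16 arrays. Between the -GFs cultures 2 were called without background correction. TEK lost its call there with no filter (limma adjusted p = 0.102) and at an adjusted p under 0.05. The FGF2 difference of effects gave 1 to 2 calls with an array left out. That of BMP4 gave 0 to 2, and 1 with no filter or the stricter p. With the replicate number as a block, PECAM1 for BMP4 in co-cultures kept its log2 difference of 1.98 but not its call (adjusted p = 0.185), and no other gene among the 4 changed its call. The numbers were not taken as pairs, since not every same-numbered pair of arrays correlated above 0.1 in its deviations. In co-cultures same-numbered arrays ranged from -0.20 to 0.28 (6 pairs). In PA6 they ranged from 0.07 to 0.20 (9 pairs), above all 18 pairs of unlike number (-0.14 to -0.012), and there the number is also the column run. The column run block, chosen after seeing the data, takes the 3 runs of columns in the table as batches. Same-run co-culture arrays correlated at 0.10 to 0.28 (5 pairs), against -0.28 to 0.10 for arrays of unlike run (11 pairs). The main fits took no block. With the column run block PECAM1 for BMP4 became 1.45 (limma adjusted p = 0.144) and PECAM1 for BMP4 against FGF2 became -1.48 (adjusted p = 0.0956).

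Signs turned only in differences that were never called. Under median scaling ENG became 0.084 for BMP4 in co-cultures, -0.036 for BMP4 in PA6 and 0.12 for the BMP4 difference of effects, and PECAM1 became -0.0016 for BMP4 in PA6. ENG for BMP4 in co-cultures was 0.18 with the column run block, and PECAM1 for FGF2 in PA6 was 0.0072 without background correction. With an array left out, ENG ranged from -0.21 to 0.19 for BMP4 in co-cultures, from -0.10 to 0.45 for FGF2 in PA6, from -0.17 to 0.45 for BMP4 in PA6 and from -0.45 to 0.16 for the BMP4 difference of effects. FLT1 ranged from -0.34 to 0.23 and PECAM1 from -0.10 to 0.10 for FGF2 in PA6, and for BMP4 in PA6 they ranged from -0.53 to 0.046 and from -0.054 to 0.15. TEK for FGF2 in PA6 ranged from -0.84 to 0.42. The cause of these shifts was not tested. Dim signal limits 11 of 16 probes.

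Counts over all genes moved more. In co-cultures 1100 genes were called for FGF2 (324 to 1675 under the alternatives, 395 to 1069 with an array left out), 556 for BMP4 (32 to 870, and 102 to 547) and 214 for BMP4 against FGF2 (2 to 574, and 39 to 187). The share of called genes that were higher became 63.6% in place of 52.3% with median scaling for BMP4 against FGF2, 75.1% in place of 62.3% for the FGF2 difference of effects and 77.4% in place of 61.6% for that of BMP4.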
